A study of Mus musculus with 2 samples.

Results

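The Mir181 family comprises 6 microRNA genes in the mouse, Mir181a-1, Mir181b-1, Mir181a-2, Mir181b-2, Mir181c and Mir181d, and was taken by name from the GENCODE M21 annotation. All 6 were found among the 2202 microRNA genes of the count files. The tissue was hippocampus, described in the labels as a layer of hippocampus, of wild-type female control mice of the strain B6NCrl, with no treatment named and no age given. This single group was profiled in 2 microRNA libraries, biological replicates 1 and 2. They have separate biosample records and the same donor record, and nothing in the labels tells whether separate animals were used, so the spread between them may be technical.

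MicroRNAs are short RNAs cut from a hairpin, whose 5p and 3p arms can each yield a mature strand. The mature strand pairs with messenger RNAs mainly through its seed, bases 2 to 8, and lowers their translation or stability, so microRNAs with the same seed have overlapping targets. The miR-181 family is best known for tuning antigen receptor signalling in developing T cells. In hippocampal neurons miR-181a is known to act on the AMPA receptor subunit GluA2, and family members have also been studied in astrocytes.

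The 6 genes lie in 3 pairs, and the mature sequences are shown because they set which genes the reads could be told apart from. Coordinates are mm10 (GRCm38). Mir181a-1 (ENSMUSG00000065565.1, chr1:137966455-137966541, plus strand) and Mir181b-1 (ENSMUSG00000065458.1, chr1:137966639-137966718) lie 97 bases apart within an intron of the long noncoding RNA Gm4258. Mir181b-1 also lies in an exon of the noncoding RNA A430106G13Rik, and 11 bases of Mir181a-1 lie in exon sequence of the same RNA. Mir181a-2 (ENSMUSG00000065423.1, chr2:38852735-38852810, plus strand) and Mir181b-2 (ENSMUSG00000065578.1, chr2:38853830-38853918) are separated by 1019 bases and lie opposite an intron of Nr6a1, an orphan nuclear receptor gene. Mir181b-2 also lies opposite an exon of Gm44144. Mir181c (ENSMUSG00000065483.2, chr8:84178873-84178961, minus strand) and Mir181d (ENSMUSG00000076338.1, chr8:84178716-84178787) are 85 bases apart in an intron of a noncoding transcript of Nanos3, a germ cell gene. The hairpins measure 72 to 89 bases with a GC content of 42.5% to 58.4%.

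The RefSeq table for GRCm38.p6 gave mature sequences for 6 of 6 genes, 12 entries with 10 distinct sequences. The 5p strands follow, with the seed in capitals.
miR-181a-5p (Mir181a-1 and Mir181a-2): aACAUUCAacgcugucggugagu
miR-181b-5p (Mir181b-1 and Mir181b-2): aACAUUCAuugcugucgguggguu
miR-181c-5p: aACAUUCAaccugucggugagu
miR-181d-5p: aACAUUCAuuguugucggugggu
All 6 genes carry the 5p seed ACAUUCA, and none of the other entries among the 1738 mature sequences of that table has it. Positions below count from 1 at the 5′ end of the mature strand. The b and d strands differ by C12U over the 23 bases compared, the a and b strands by A9U, C10U and A21G, and the a and c strands by a single inserted or deleted base (edit distance 1).

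The 3p strands fall into 4 seed groups, and each of them is distinct.
miR-181a-1-3p: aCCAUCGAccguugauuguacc
miR-181c-3p: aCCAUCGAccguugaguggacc
miR-181a-2-3p: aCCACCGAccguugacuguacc
miR-181b-1-3p: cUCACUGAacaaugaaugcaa
miR-181b-2-3p: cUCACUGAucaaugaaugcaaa
miR-181d-3p: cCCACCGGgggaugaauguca
The 3p strands of Mir181a-1 and Mir181a-2 differ by U5C and U16C, those of Mir181a-1 and Mir181c by U16G and U19G, and those of Mir181b-1 and Mir181b-2 by A9U over 21 bases.

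Because the 5p strands of both a copies are identical, as are those of both b copies, a read of either strand has more than one place of origin until it runs past the mature end. The next 30 bases shown start at the 5p strand of each copy, with the earliest base that separates the copies in capitals.
Mir181a-1 (chr1:137966468-137966497): aacauucaacgcugucggugaguuuggAau
Mir181a-2 (chr2:38852741-38852770): aacauucaacgcugucggugaguuuggGau
Mir181b-1 (chr1:137966650-137966679): aacauucauugcugucgguggguuGaacug
Mir181b-2 (chr2:38853845-38853874): aacauucauugcugucgguggguuUgaaug
The a copies share 27 leading bases and part at position 28 (A28G from Mir181a-1 to Mir181a-2), 5 bases beyond the 23-base mature strand. The b copies share 24 and part at position 25 (G25U from Mir181b-1 to Mir181b-2), immediately after the 24-base mature strand. Among annotated hairpins the 5p strand of Mir181c was unique from 11 bases and that of Mir181d from 12, and all 6 3p strands were unique within their mature length, from 9 to 16 bases. Reads that mapped to several places were assigned to no gene in these files, so the levels of the a and b genes leave out an unknown number of 5p reads. The files give neither the arm nor the length of a read.

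The libraries held 6713867 (replicate 1) and 5901107 (replicate 2) sense counts on microRNA genes, and a further 43.9% and 45.9% of all reads had mapped to several places. Levels below are sense counts per 1000000 sense counts over all microRNA genes (CPM). Markers of cell types were summed to describe the tissue. With no other tissue to compare, they do not check the hippocampus label. The 13 neuronal microRNA genes, led by Mir132, Mir128-1, Mir383 and Mir138-2, summed to 38333 and 38452 CPM. Among them, Mir124a-1, Mir124a-2 and Mir124a-3 had only 0 to 8 counts each. Each of these Mir124a genes shares a stretch of 32 bases with another annotated hairpin. The part of reads mapped to several places in their low counts was not tested. Markers of other cells had summed levels of 2028 and 2246 CPM for 6 leukocyte and microglia genes, 6191 and 2897 CPM for endothelial Mir126a, 2480 and 1504 CPM for the mural pair Mir143 and Mir145a, 7067 and 3183 CPM for the oligodendrocyte pair Mir219a-2 and Mir338, and 73.1 and 32.7 CPM for 3 erythrocyte genes.

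The family contributed 24181 counts in replicate 1 and 19652 in replicate 2. This is 3602 and 3330 CPM, a mean of 3466 ± 192 CPM (SD, n = 2), or 0.347% ± 0.0192 of the counts assigned to microRNA genes. With reads mapped to several places added to the total, the mean was 1674 CPM. The chromosome 8 pair supplied most of it, 60.7% ± 4.63 of the family counts (SD, n = 2), the chromosome 2 pair 32.1% ± 5.40 and the chromosome 1 pair 7.25% ± 0.777. This order of the pairs held in both libraries. It rests on assigned counts, which leave out an unknown number of reads of the a and b genes. In this bulk tissue, fewer cells of a type and less RNA per cell cannot be told apart.

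Mir181d had the highest mean level of assigned counts. Reads of the a and b genes that mapped to several places are missing from this comparison. Mir181d ranked first on these terms only. This gene had 10421 counts in replicate 1, 1552 CPM (exact 95% interval 1523 to 1582), and 7131 in replicate 2, 1208 CPM (1181 to 1237), for a mean of 1380 ± 243 CPM (SD, n = 2). Mir181d ranked 72 and 74 among the 2202 genes. Mir181b-2 followed with 6736 and 6936 counts, 1003 CPM (979 to 1028) and 1175 CPM (1148 to 1203), a mean of 1089 ± 122 CPM. These intervals cover counting error only, and the files record no molecular identifiers.

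Mir181c came next, with 5043 and 4151 counts, or 751 CPM (exact 95% interval 731 to 772) and 703 CPM (682 to 725). Its mean of 727 ± 33.7 CPM (SD, n = 2) had the smallest relative spread of the family, an SD of 4.64% of the mean. Mir181a-1 had 1809 and 1221 counts, or 269 CPM (257 to 282) and 207 CPM (195 to 219), a mean of 238 ± 44.2 CPM. It was the only a gene above 100 CPM.

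The other copies of a and b were far lower and ranked 278 and 289 among the 2202 genes by mean level. Mir181a-2 had 96 and 118 counts, or 14.3 CPM (exact 95% interval 11.6 to 17.5) and 20.0 CPM (16.6 to 23.9), a mean of 17.1 ± 4.03 CPM (SD, n = 2). Mir181b-1 had 76 and 95 counts, or 11.3 CPM (8.92 to 14.2) and 16.1 CPM (13.0 to 19.7), a mean of 13.7 ± 3.38 CPM. From Mir181d to Mir181b-1 the family spanned 101-fold in mean level of assigned counts.

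The order of mean levels, Mir181d, Mir181b-2, Mir181c, Mir181a-1, Mir181a-2 and Mir181b-1, was the same in each library and also per base of hairpin. Neighbours differed clearly in the middle of this order, which compares assigned counts only. Mir181a-1 was 18.8-fold and 10.3-fold above Mir181a-2, and Mir181c was 2.79-fold and 3.40-fold above Mir181a-1. Mir181b-2 exceeded Mir181c 1.34-fold and 1.67-fold.

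At both ends of the order the neighbours were not separated in both libraries. Mir181d made up 60.7% of the counts of Mir181d and Mir181b-2 in replicate 1 (exact 95% interval 60.0 to 61.5) but 50.7% in replicate 2 (49.9 to 51.5), and the gap of their means, 291 CPM, was smaller than the sum of their SDs. Mir181a-2 made up 55.8% (48.1 to 63.4) and 55.4% (48.5 to 62.2) of the counts of Mir181a-2 and Mir181b-1, so their difference was not detectable at this depth.

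**Figure D1:**
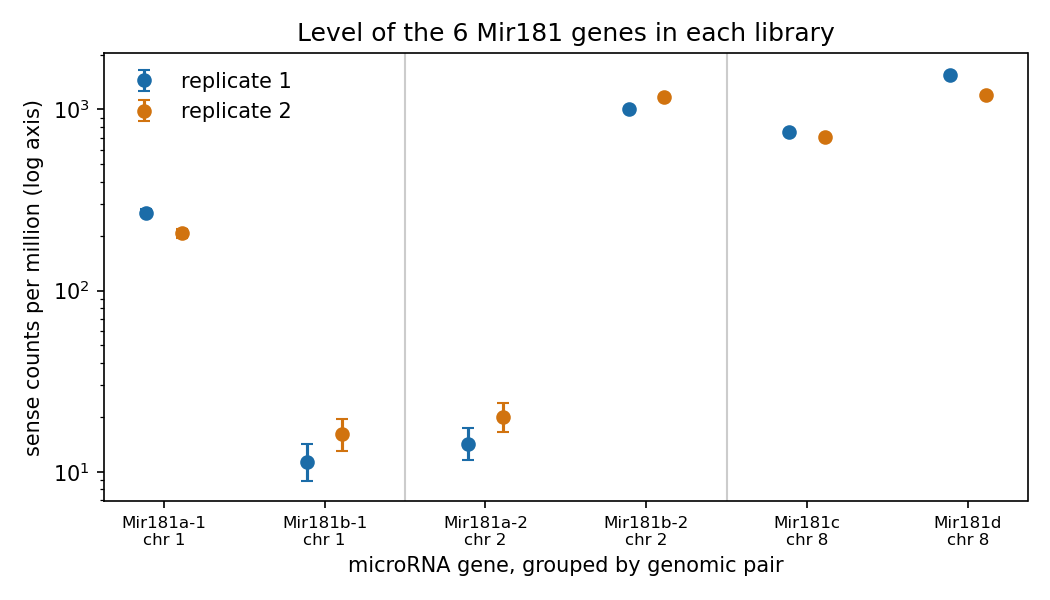
Sense CPM (log axis) of the 6 Mir181 genes in replicates 1 and 2, grouped by genomic pair, with exact 95% intervals as bars. In the chromosome 1 pair the a gene is the high one (269 and 207 CPM), in the chromosome 2 pair the b gene (1003 and 1175 CPM).

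Within the pairs the gene with more assigned counts switched between chromosome 1 and chromosome 2. In the chromosome 1 pair Mir181a-1 held 96.0% of the counts in replicate 1 (exact 95% interval 94.98 to 96.8) and 92.8% in replicate 2 (91.2 to 94.1), a mean of 94.4% ± 2.25 (SD, n = 2). It exceeded Mir181b-1 by 23.8-fold and 12.9-fold. In the chromosome 2 pair Mir181a-2 held only 1.41% (1.14 to 1.71) and 1.67% (1.39 to 2.00), a mean of 1.54% ± 0.189, and its neighbour Mir181b-2 was 70.2-fold and 58.8-fold higher. By assigned counts the a gene was thus the higher partner on chromosome 1 and the b gene on chromosome 2, in both libraries. These shares leave out an unknown number of reads that mapped to several places, so the full balance of a and b is not known.

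The chromosome 8 pair was the most even. Mir181c held 32.6% of its counts in replicate 1 (exact 95% interval 31.9 to 33.4) and 36.8% in replicate 2 (35.9 to 37.7), a mean of 34.7% ± 2.96 (SD, n = 2). Mir181d was 2.07-fold and 1.72-fold above it. Neither gene of this pair has a mature strand that is also in another annotated hairpin.

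**Figure D2:**
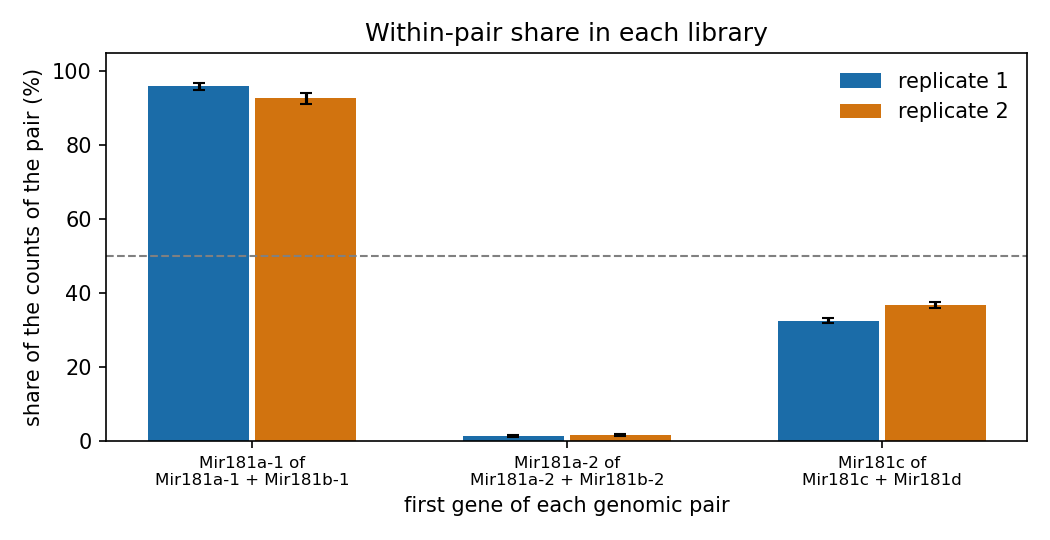
Share (percent) of the counts of each genomic pair that fell on its a gene, or on Mir181c, in replicates 1 and 2, with exact 95% intervals as bars and 50% as a dashed line. The share is above 90% for Mir181a-1, below 2% for Mir181a-2 and between them for Mir181c.

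Unequal neighbours were common among microRNA genes. Across 89 pairs of adjacent genes on one strand with starts within 10 kb, each partner averaging at least 10 counts, the median size of the log2 ratio between partners was 2.93 (quartiles 1.49 and 4.54), and the same partner was higher in both libraries in 86. By this size the pair of Mir181a-2 and Mir181b-2 ranked 9, that of Mir181a-1 and Mir181b-1 ranked 32, and that of Mir181c and Mir181d ranked 78. By assigned counts the chromosome 2 pair was therefore among the more unequal ones and the chromosome 8 pair among the more even ones. The ranks take no account of shared sequence. The longest stretch shared with another annotated hairpin was 28 bases in the chromosome 1 pair, 28 in the chromosome 2 pair and 17 in the chromosome 8 pair.

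**Figure D3:**
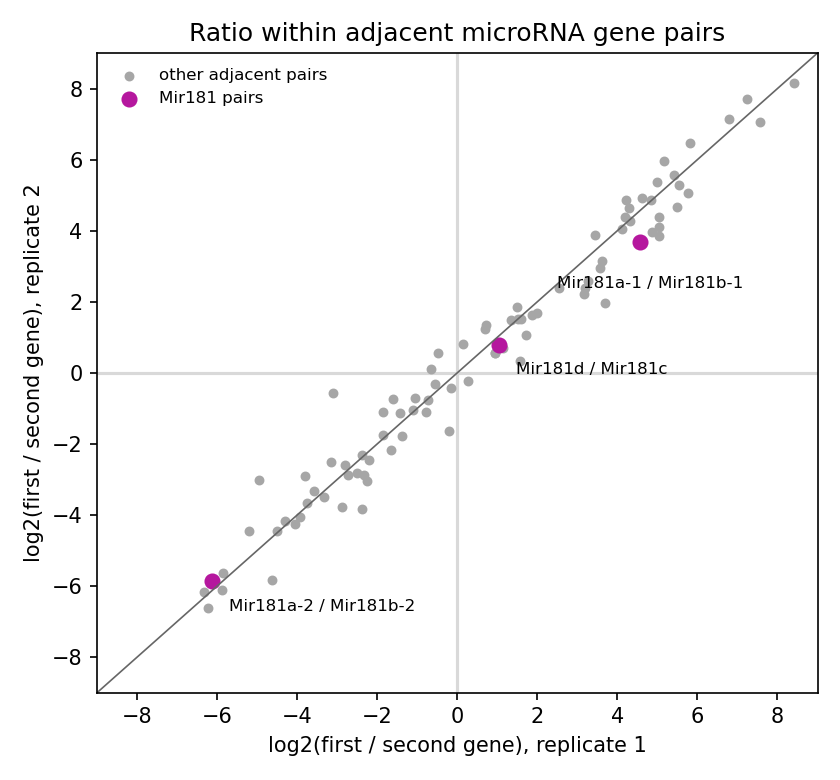
Log2 ratio of the counts of the partners in 89 adjacent gene pairs, replicate 1 against replicate 2, with the 3 Mir181 pairs marked. Partners are ordered by genome position, and the line marks the same ratio in both libraries. The pair of Mir181a-2 and Mir181b-2 lies near the lower end (-6.13 and -5.87). That of Mir181d and Mir181c lies nearer the centre (1.05 and 0.78).

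The balance within a pair also shifted between the libraries. By a Fisher exact test on the counts of the partners in both libraries, with Benjamini-Hochberg adjustment over the 89 pairs, 2 of the 3 Mir181 pairs differed, against 69.7% of all pairs tested, so the family's share is near that background. The log2 ratio of Mir181a-1 to Mir181b-1 fell by 0.89 (counting SE 0.23, adjusted p = 0.000221, exact test) from replicate 1 to replicate 2. That of Mir181c to Mir181d rose by 0.27 (SE 0.037, adjusted p = 4.35e-12, exact test). For Mir181a-2 and Mir181b-2 the change was 0.25 (SE 0.20, adjusted p = 0.281, exact test) and did not pass. The test compares these 2 libraries, not conditions.

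Single genes were compared between the libraries with a Fisher exact test of each gene against all other counts, which rests on raw totals, adjusted by Benjamini-Hochberg over the 466 genes that averaged at least 10 counts, as all 6 members did. The log2 ratio divides replicate 2 by replicate 1 after scaling with the trimmed mean of M values (TMM), and a gene was called only if its sign was the same under TMM, raw totals and DESeq2 size factors. Of the 6 genes 2 were called lower in replicate 2 and 3 higher. Over all tested genes 53.6% were called, 35.6% lower and 18% higher. With an exact binomial test at TMM library sizes, an alternative added after seeing the data, 29.4% were lower and 24.7% higher, and the same 5 member calls held. The median log2 ratio of the members was 0.23, beside -0.019 over all tested genes. Under totals these medians were 0.067 and -0.18.

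The called genes moved in both directions. Mir181d was lower in replicate 2, with a log2 ratio of -0.36 on totals (counting SE 0.022, adjusted p = 1.14e-59, Fisher exact test) and -0.20 under TMM (adjusted p = 6.60e-19, exact binomial test). Mir181a-1 was lower at -0.38 on totals (SE 0.053, adjusted p = 2.57e-12, Fisher exact test) and -0.22 under TMM (adjusted p = 9.55e-05, exact binomial test). Mir181b-2 was higher at 0.23 on totals (SE 0.025, adjusted p = 8.55e-20, Fisher exact test) and 0.39 under TMM (adjusted p = 2.66e-55, exact binomial test). The low copies were higher too. Mir181a-2 stood at 0.48 on totals (SE 0.20, adjusted p = 0.0297, Fisher exact test) and 0.64 under TMM (adjusted p = 0.00258, exact binomial test). Mir181b-1 stood at 0.51 on totals (SE 0.22, adjusted p = 0.0452, Fisher exact test) and 0.67 under TMM (adjusted p = 0.00541, exact binomial test). The Fisher exact call of Mir181b-1 was lost with no filter on low counts (adjusted p = 0.0735).

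Mir181c had no direction that held under all 3 scalings: with TMM its log2 ratio was 0.067 and with the size factors of DESeq2 0.056, whereas raw totals gave -0.095 (counting SE 0.030). The Fisher exact test passed on totals (adjusted p = 0.00353), whereas the exact binomial test did not pass under TMM (adjusted p = 0.0504) or DESeq2 size factors (adjusted p = 0.105). In size, 3 of the 6 member ratios under TMM, those of Mir181a-1, Mir181c and Mir181d, lay below the median size of 0.36 over all tested genes. Partners on chromosome 1 were called in opposite directions, whereas both genes on chromosome 2 were higher in replicate 2. Their summed pair levels were 281 and 223 CPM on chromosome 1, 1018 and 1195 CPM on chromosome 2, and 2303 and 1912 CPM on chromosome 8.

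**Figure D4:**
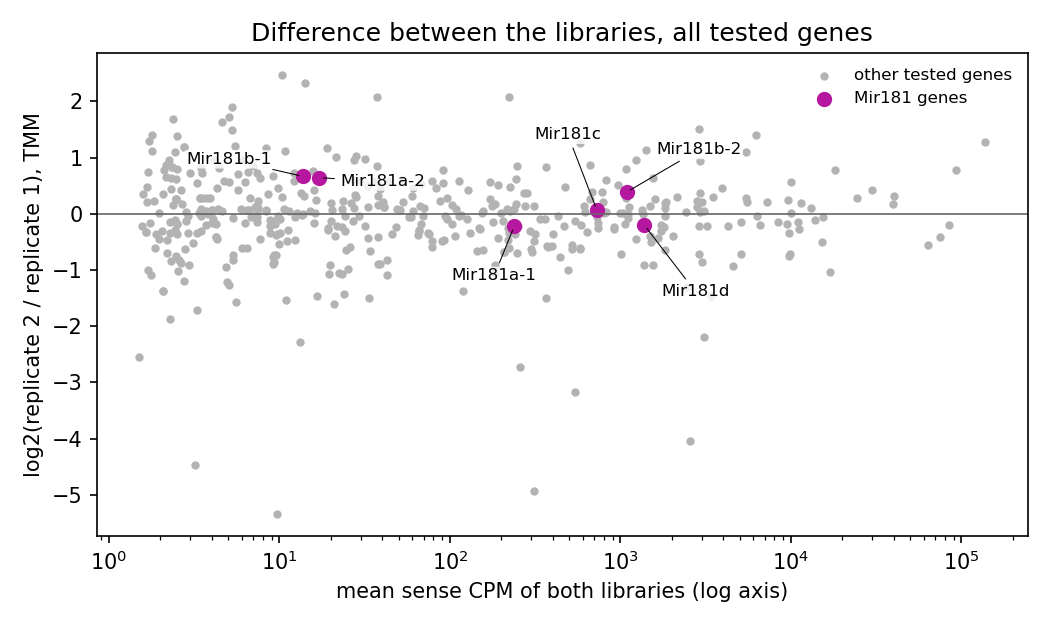
Log2 ratio of replicate 2 to replicate 1 (TMM) against mean CPM (log axis) for 466 tested microRNA genes, with the 6 Mir181 genes marked. The members lie between -0.22 and 0.67, within the cloud of the other genes.

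Markers of several cell types moved between the libraries as well. All 5 tested genes of endothelium, erythrocytes and oligodendrocytes were called lower in replicate 2, as was Mir143 of mural cells. The other mural gene, Mir145a, did not pass and had a log2 ratio of 0.26 under TMM. Of 6 leukocyte and microglia genes 4 were lower, while Mir150 and Mir146b of that list were higher. Of the 13 neuronal genes 10 were tested, of which 5 were higher and 4 lower, and Mir124a-2 was at 0 in both libraries. For comparison, 35.6% of all tested genes were called lower and 18% higher. The part of the marker shifts in the Mir181 differences was not tested. Adapter trimming followed a different document in each library, per the labels, so the trimming and the biosample cannot be told apart.

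The copied genes of the family were then set beside 4 other microRNA families that are spread over several clusters. In each of these, among genes with a mature entry, those with a strand also found in another hairpin had lower mean levels than those without one, which is a description with no test. In the Mir30 family the 2 copied genes had 190 and 339 CPM and the 2 others 1130 and 2830 CPM. Mir30b and Mir30d had no entry and were placed in neither kind. Mir30b, at 112 CPM, was below both copied genes, and Mir30d was at 7194 CPM. In the Mir29 family the copied genes had 59.5 and 130 CPM and the others 249 and 9479 CPM. In the Mir23, Mir27 and Mir24 clusters the copied genes had 26.2 and 28.0 CPM and the 4 others 74.9 to 24443 CPM. In the Mir26 family the copied genes had 10.4 and 27.3 CPM and Mir26b 5480 CPM.

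The Mir181 family departed from this order in 1 gene. Mir181a-1, Mir181a-2 and Mir181b-1 were below Mir181c and Mir181d, but Mir181b-2 (1089 CPM), whose 5p strand is also in Mir181b-1, was above Mir181c (727 CPM) in both libraries. Of the 1018 genes matched to the table of mature sequences, 111 had a strand that is also in another hairpin, and 42.3% of these averaged at least 10 counts, beside 41.1% of the other 907. Their median level was 0.244 CPM, beside 0.722 CPM for the others. Among the 111, Mir181b-2 ranked 9 by mean level, Mir181a-1 18, Mir181a-2 38 and Mir181b-1 39, behind Mir128-1 and Mir219a-2 at the top.

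**Figure D5:**
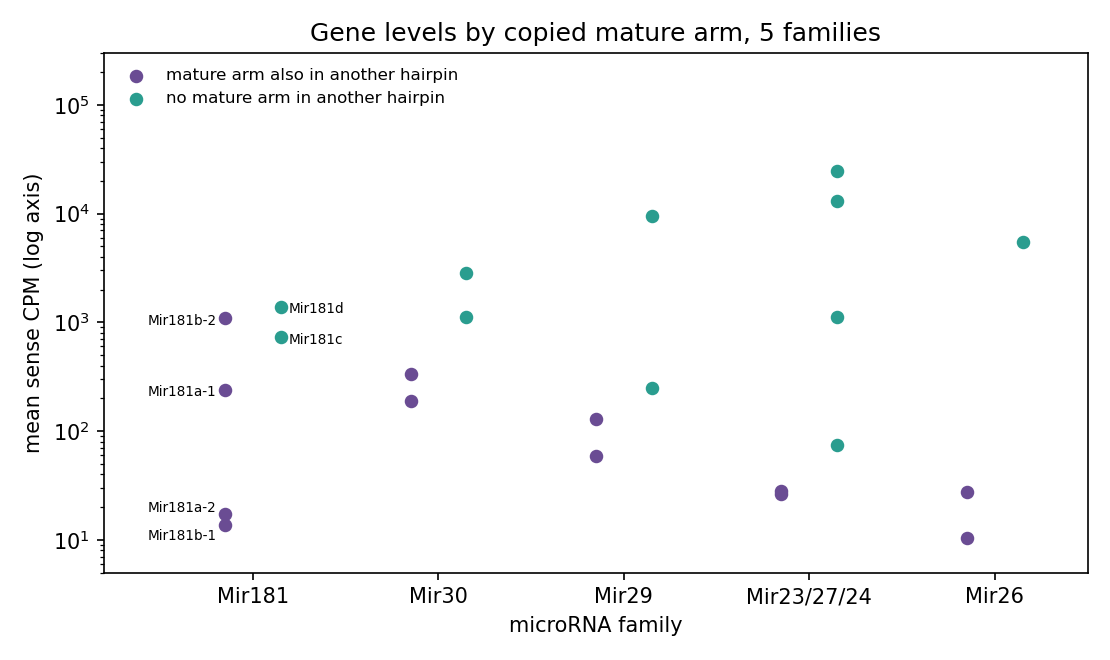
Mean sense CPM (log axis) of the genes of 5 microRNA families that have a mature entry, split by whether a mature strand is also in another annotated hairpin. Mir181b-2 at 1089 CPM is the highest gene of the copied kind in these families and lies above Mir181c at 727 CPM.

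Counts on the strand opposite to the genes were 0 for all 6 members in both libraries. This allows up to 3 counts, or 0.447 CPM in replicate 1 and 0.508 CPM in replicate 2. Each member had the same count with and without strand.

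The gene outside the family nearest to each member in log2(CPM + 1) over both libraries was Mir212 for Mir181c (distance 0.037), Mir369 for Mir181a-1 (0.057), Mir423 for Mir181b-2 (0.083), Mir93 for Mir181d (0.15), Mir7046 for Mir181a-2 (0.19) and Mir1982 for Mir181b-1 (0.20). Mir212, an activity-linked neuronal microRNA, had 768 and 694 CPM. Mir369, of the imprinted Dlk1-Dio3 locus, had 272 and 199 CPM. With 2 libraries this likeness describes levels only.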

How the data were processed

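Small RNA below 30 nt from 2 hippocampus libraries was sequenced, per the labels. The authors deposited raw whole-number counts per microRNA gene for mm10 and GENCODE M21, per the labels and the deposited notes. Which aligner and counter made them is not given in the sources used here. Of 3 count columns (without strand and by strand), the strand column with the larger gene total was used. Library sizes leave out the 4 classes of unassigned reads.

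All 2202 identifiers matched GENCODE M21. CPM, exact Clopper-Pearson 95% intervals and Fisher exact tests on raw totals, with exact binomial tests at scaled library sizes added after seeing the data, were computed with scipy 1.17.1, Benjamini-Hochberg threshold 0.05. TMM factors came from edgeR 4.0.16 and size factors from DESeq2 1.42.0. Log2 ratios add 0.5 counts to the deposited counts. Shared stretches were searched among annotated hairpins, both strands, not the genome. Tests were checked on simulated counts that vary by counting error only, which cannot show how they behave between real libraries.

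Members and lists were chosen with earlier results of these data known. Named genes are the 6 members, the nearest gene to each, and up to 4 leading genes of each of 4 comparison families and 6 marker lists. Mir146b, the 3 Mir124a genes, Mir30b and the top copied genes were named after their values were seen. Alternatives covered strand, scaling, library total, count filter, added counts, adjustment, shared bases and each replicate left out.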

Additional observations from a re-analysis of the deposited data

How the results depend on the processing

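The order of the 6 mean levels does not depend on the scaling of a library, and the alternatives moved sizes. The summed family level went from 3466 to 3702 CPM without strand and to 1674 CPM when reads mapped to several places were added to the total, both larger moves than the SD of 192 CPM. These follow from a smaller and a larger denominator. Without each replicate in turn it was 3330 to 3602 CPM. With only genes sharing fewer than 18 bases, 371 genes and 2 members were tested, and 1 member was lower and 0 were higher in replicate 2 (Mir181d passed the Fisher exact test, and Mir181c passed it with its sign set by the scaling), because the a and b genes had been removed. Mir181c turned to a log2 ratio of -0.095 under totals. Across alternatives with adjustment, the adjusted p of Mir181b-1 ran from 0.00541 to 0.0735 and that of Mir181a-2 from 0.00258 to 0.0488 (exact tests). The number of pairs that differed stayed at 2 of 3 under every filter and without strand. At 76 to 118 counts, Mir181b-1 and Mir181a-2 are limited by depth. No difference between libraries has a replicate check.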
